A study of Homo sapiens with 6 samples.

Results

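The genes described here handle zinc, copper and iron. They were taken by symbol from the count tables: all rows named SLC30A, SLC39A, SLC31A1, SLC31A2 or MT1 with a single closing letter, together with 17 named genes of metallothionein, copper and iron biology. This gave 52 of 56638 gene rows. The rule itself is by symbol, but it was proposed with earlier results of these data known.

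Gene counts came from RNA sequencing of 2 groups of 3 libraries each, whose cells carry the label SW480, the name of a human colorectal adenocarcinoma line. Cells of the TGFB1 group were given TGF-β1, a secreted cytokine that signals through receptor kinases to SMAD transcription factors, at 10 ng/ml and on more than 4 occasions, and the control group received none. Both groups were grown in RPMI-1640 with fetal bovine serum and were labelled with passages 16 to 19. Whether each library stands for its own culture is not stated in the labels, so p-values speak to the spread among these libraries alone, which may be technical. The model is 1 cancer cell line, and RNA was taken in bulk, so fewer cells that express a gene and less of its RNA per cell cannot be told apart.

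Libraries held 13012898 to 16005222 counts in genes. TGFBI and PMEPA1, genes known to be induced by TGF-β, were 46.1-fold and 13.9-fold higher in the TGFB1 libraries. Of 12 listed colorectal epithelial markers 5 could be tested. KRT8 stood at 1711 and 1678 CPM (a gene's counts per scaled library size) in control and TGFB1 libraries, while CDX2 and ASCL2 had 0 counts in all 6 libraries and VIL1 had 3 control counts and 0 TGFB1 counts, so these intestinal markers were absent or near 0. Of the other tested markers KRT18, EPCAM and CDH1 were 1.47-fold, 1.73-fold and 3.95-fold lower and LGR5 was 3.36-fold higher. CDH1 had 47 control and 12 TGFB1 counts, and LGR5 had 13 and 46. The count minimum was met for CDH1 by control libraries alone and for LGR5 by TGFB1 libraries alone. This fixed the direction of both. ALPP, placental alkaline phosphatase, stood at 473 CPM in control libraries. Whether the cells match their label was not tested. Of 9 fibroblast markers 5 were tested and all 5 were called higher in TGFB1 libraries, as were 23.4% of all tested genes. FAP had 1 control count and 51 TGFB1 counts. Only TGFB1 libraries met the count minimum for FAP, and this fixed its direction. THY1 was also low, with 23 control counts and 52 TGFB1 counts. The 9 markers summed to 91.7 to 95.4 CPM in control and 121 to 137 CPM in TGFB1 libraries. However, COL1A2 and COL3A1, collagen chains that fibroblasts make in bulk, had 0 control counts and 2 and 3 TGFB1 counts. The 4 immune markers summed to at most 1.07 CPM in any library, with PTPRC at 0 counts. The 3 endothelial markers summed to 2.64 to 3.27 CPM in control and 0.377 to 0.883 CPM in TGFB1 libraries, with PECAM1 at 0 counts and VWF 5.09-fold lower. The part of these markers in the results below was not tested. The 4 erythroid markers summed to at most 1.60 CPM in any library.

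Cells must take up these metals as cofactors and yet keep the free ions low, because free iron and copper feed oxidative damage and free zinc binds proteins at random. Transporters of the SLC39A (ZIP) family bring zinc into the cytosol, those of the SLC30A (ZnT) family move it out or into vesicles, and metallothioneins hold zinc and copper on clusters of cysteines. Iron enters on transferrin through the receptor TFRC, is stored in ferritin shells of FTH1 and FTL subunits, and is exported by ferroportin (SLC40A1). The iron regulatory proteins ACO1 (IRP1) and IREB2 (IRP2) bind hairpins in messenger RNAs and so set their translation or stability.

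Of the 52 genes 35 had enough counts to be tested. Of these 11 were higher and 13 were lower in TGFB1 libraries and 11 did not pass (edgeR's quasi-likelihood test, Benjamini-Hochberg adjusted p over all 14897 tested genes, threshold 0.05). This is 68.6% of the tested members, against 47.3% of all tested genes (23.4% higher and 23.9% lower). A change of at least 1.5-fold was called for 11 members (31.4%), against 18.5% of all tested genes. The median log2 fold change was −0.07 over the tested members and 0.00033 over all tested genes. In 25 of the 35 (71.4%) the 3 libraries of one group lay entirely above those of the other, as they did in 54.2% of all tested genes (27.0% with TGFB1 above and 27.3% with TGFB1 below). TGFB1 libraries lay above in 11 of these members and below in 14. For MT1X the TGFB1 libraries alone met the count minimum, and this fixed its direction. Without it 10 of 34 were higher and 13 lower. The split depended on the scaling, with 14 higher and 10 lower when libraries were scaled by size alone, and 13 and 10 with upper quartile scaling.

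**Figure D1:**
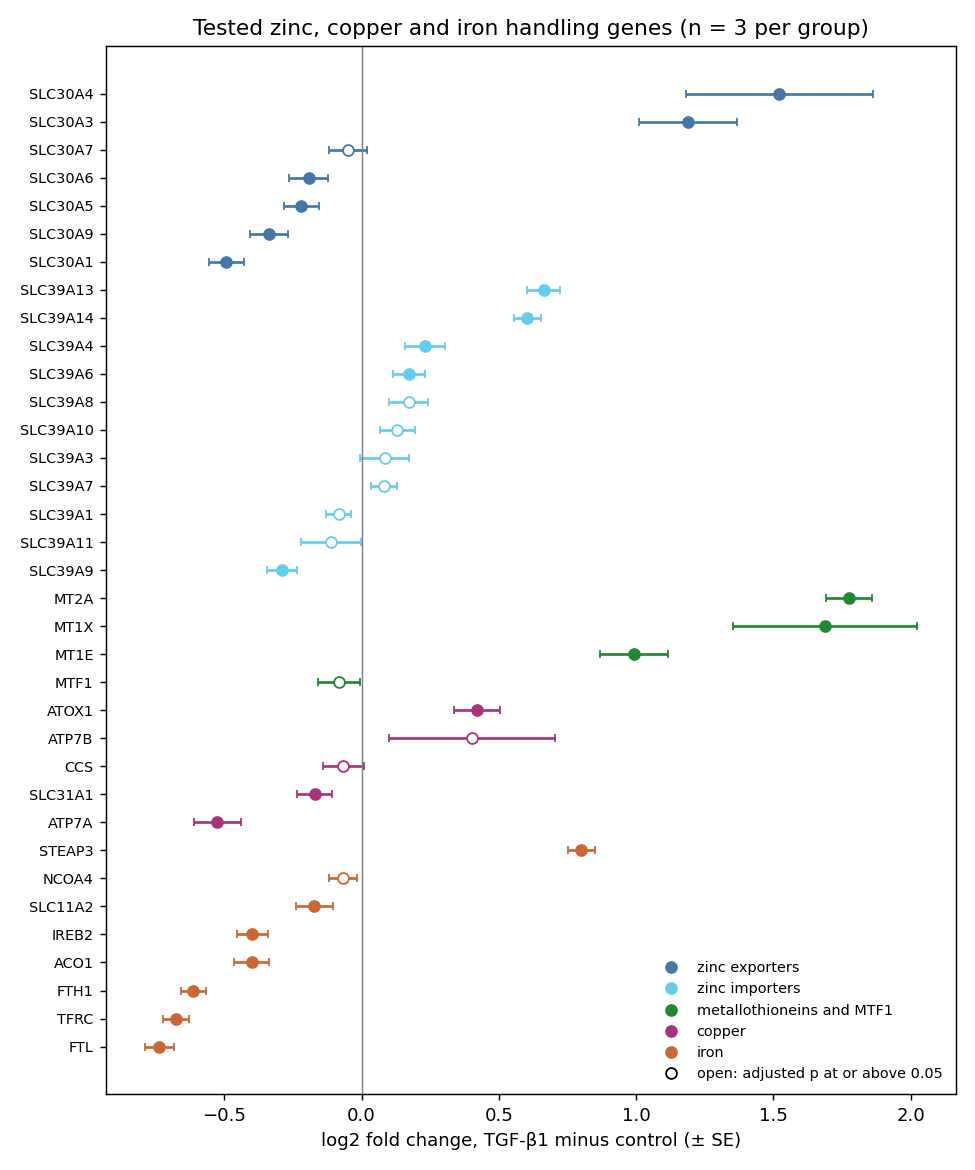
Log2 fold change (TGF-β1 minus control, horizontal axis) with its SE for the 35 tested genes, coloured by role, with filled points at an edgeR adjusted p under 0.05. Metallothioneins MT2A, MT1X and MT1E lie to the right of 0, and 6 of the 8 tested iron genes lie to its left as filled points.

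The 17 untested members were low or silent. No count in any library was found for 8 of them, SLC30A2 and the metallothionein rows MT1A, MT1B, MT1F, MT1G, MT1H, MT1L and MT1M. A count of 0 over a group allows up to 0.0698 CPM in control and 0.0677 CPM in TGFB1 libraries, counting error only. The other 9, SLC30A8, SLC30A10, SLC31A2, SLC39A2, SLC39A5, SLC39A12, SLC40A1, STEAP1 and STEAP2, had at most 5 counts in a library.

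Iron genes were mostly lower in TGFB1 libraries. Of 11 members 8 were tested, of which 6 were lower, 1 was higher and 1 did not pass. The share called was 87.5%, against 47.3% of all tested genes (23.4% higher and 23.9% lower). Under scaling by library size alone or by upper quartile 5 were lower. The median log2 fold change of the 8 was −0.40. Both subunits of the storage protein, the uptake receptor and both iron regulatory proteins were among the lower ones, and the ferric reductase STEAP3 was the one that was higher.

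Among the targets of the iron regulatory proteins, some carry the hairpin in the 5′ UTR, where binding blocks translation, and others in the 3′ UTR, where binding protects the messenger RNA. The hairpin was sought in GENCODE 29 protein-coding transcripts (GRCh38) as an unpaired C, 5 paired bases, the loop CAGTGN and 5 bases that pair back, G with T allowed, on the sense strand. It was found in 1 stretch each of FTH1, FTL and SLC40A1 (5′ UTR), in 4 of TFRC (3′ UTR) and in 1 of SLC39A9 (3′ UTR). Of all 19644 protein-coding genes 0.183% held such a match in a 5′ UTR and 0.677% in a 3′ UTR. A match is a description of letters and not a tested site. Hairpins with another loop, or with an extra unpaired base in the stem, could not be found by this search. A member without a match may therefore still carry a hairpin, and a member with matches may carry more. Matches of the 4 iron genes, which serve storage, export and uptake, are shown with the loop in capitals. The loop letters they share were required by the search. Letters A to D give the order of the TFRC matches along the transcript and are not established names of elements.
FTH1 5′ hairpin: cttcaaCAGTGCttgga
FTL 5′ hairpin: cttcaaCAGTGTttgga
SLC40A1 5′ hairpin: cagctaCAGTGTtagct
TFRC 3′ hairpin A: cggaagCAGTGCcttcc
TFRC 3′ hairpin B: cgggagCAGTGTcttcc
TFRC 3′ hairpin C: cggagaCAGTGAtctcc
TFRC 3′ hairpin D: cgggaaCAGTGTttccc

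The loop of the FTH1 and FTL hairpins ends in C and T, and those of TFRC in C, T, A and T. The match in SLC39A9 was ctggaaCAGTGAtttta. In a narrower search of the 50 bases after each RefSeq start site (GRCh38.p14), the loop letters alone were found for FTL and NCOA4 among the 41 members with a window, and in 6.36% of all windows. FTH1 has no window in this table and was not searched there.

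FTH1, the ferritin subunit that oxidizes iron, stood at 1415, 1424 and 1477 CPM in control libraries 1 to 3 and at 933.8, 910.4 and 978 CPM in TGFB1 libraries 1 to 3. Every TGFB1 library lay below every control library, and the fold was 1.53 (log2 fold change −0.61 ± 0.046 SE, edgeR adjusted p = 3.82e-12). FTL, the subunit that helps form the iron core, stood at 1348, 1438 and 1348 CPM in control and at 822, 761.5 and 898.9 CPM in TGFB1 libraries. It too fell without overlap, 1.67-fold (log2 fold change −0.74 ± 0.052 SE, edgeR adjusted p = 2.10e-12). Together both subunits summed to 2817 ± 50.2 CPM (SD, n = 3) in control and 1768 ± 103 CPM in TGFB1 libraries. The ratio of FTL to FTH1 counts was 0.953, 1.01 and 0.913 in control and 0.8798, 0.8365 and 0.919 in TGFB1 libraries, and these ranges overlap.

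FTH1 counts are uncertain in level. Of the reads in FTH1 and its 25 pseudogene rows 43.1% stood in pseudogene rows in control and 43.6% in TGFB1 libraries, and 62.4% of FTH1 exon bases overlap exons of BEST1 in GENCODE 29. With the pseudogene rows added, FTH1 was again lower, by 0.60 on the log2 scale. For FTL and its 16 pseudogene rows the shares were 2.00% and 2.19%.

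TFRC, the receptor that brings in transferrin-bound iron, stood at 869.7, 773 and 792 CPM in control libraries and at 509.4, 509.4 and 504 CPM in TGFB1 libraries. The TGFB1 libraries were nearly equal and all lay under the lowest control library. The fall was 1.60-fold (log2 fold change −0.68 ± 0.048 SE, edgeR adjusted p = 1.51e-12). The RNAs of both ferritin subunits and of TFRC were thus lower in the same libraries. SLC40A1, the only known cellular iron exporter, had 1 count in control library 3 and 0 in the other 5 libraries, so no change in it was detectable at this depth.

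ACO1, which is a cytosolic aconitase when it holds an iron-sulfur cluster and an RNA-binding regulator without it, stood at 70.4, 66.4 and 69.9 CPM in control and at 49.3, 56.1 and 51.0 CPM in TGFB1 libraries. IREB2, the regulator that is degraded when iron is ample, stood at 115, 110.2 and 104.5 CPM in control and at 81.7, 80.1 and 88.6 CPM in TGFB1 libraries. Neither gene's groups overlapped, and both fell by 0.40 on the log2 scale, 1.32-fold each (SE 0.063 and 0.057, edgeR adjusted p = 5.43e-06 and 1.16e-06). The ratio of IREB2 to ACO1 counts was 1.60 ± 0.0876 in control and 1.61 ± 0.161 in TGFB1 libraries (SD, n = 3).

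STEAP3, a reductase that turns ferric into ferrous iron in the endosome after TFRC uptake, stood at 108.5, 109 and 113 CPM in control and at 191.5, 197 and 187 CPM in TGFB1 libraries. It rose 1.74-fold without overlap (log2 fold change 0.80 ± 0.049 SE, edgeR adjusted p = 4.80e-14). Exons of the antisense gene STEAP3-AS1 overlap 11% of its exon bases, and the counting is not stated to use strand. SLC11A2 (DMT1), which carries ferrous iron across the endosomal or plasma membrane, stood at 63.0, 63.8 and 63.0 CPM in control and at 59.9, 58.6 and 49.7 CPM in TGFB1 libraries. Its fall of 0.17 on the log2 scale was small (edgeR adjusted p = 0.0347), TGFB1 library 3 lay apart from the other two, and the call ended without that library (0.201), without control 2 (0.0543) or control 3 (0.0708), in DESeq2 (0.0730) and with scaling by library size alone (0.161) or upper quartile (0.0693). NCOA4, which carries ferritin to the lysosome for breakdown, stood at 227 ± 12.7 CPM in control and 217 ± 6.12 CPM in TGFB1 libraries (SD, n = 3) and did not pass (edgeR adjusted p = 0.280).

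**Figure D2:**
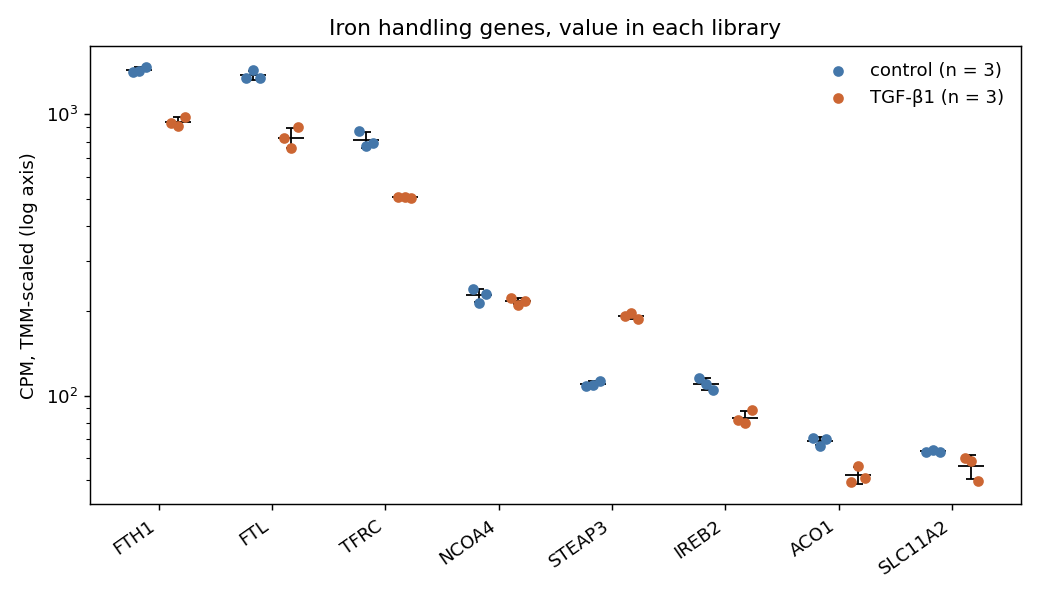
CPM (log axis) of the 8 tested iron genes in each of the 3 control and 3 TGF-β1 libraries, with bars for the mean and whiskers for the SD. FTH1, FTL, TFRC, IREB2, ACO1 and SLC11A2 are lower with TGF-β1, STEAP3 is higher, and the groups overlap for NCOA4. SLC11A2 lost its call under some settings and without some libraries.

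Metallothioneins went the other way. Of 10 metallothionein rows 3 had enough counts, MT2A, MT1E and MT1X, and all 3 were higher in TGFB1 libraries under each scaling, although for MT1X the count filter fixed that direction. Of all tested genes 23.4% were called higher. Their transcription is driven by MTF1, a zinc-sensing factor that binds metal response elements. The core of this element was sought as TGCACNC and TGCGCNC, both strands, in the 250 bases before RefSeq start sites (GRCh38.p14). MT1E has no window among these and was not searched. Promoters of MT2A and MT1X, the tested metallothioneins with a window, are shown with that of SLC30A1, another gene known to be driven by MTF1, with each match in capitals.
MT2A promoter, chr16:56608334-56608583, plus strand: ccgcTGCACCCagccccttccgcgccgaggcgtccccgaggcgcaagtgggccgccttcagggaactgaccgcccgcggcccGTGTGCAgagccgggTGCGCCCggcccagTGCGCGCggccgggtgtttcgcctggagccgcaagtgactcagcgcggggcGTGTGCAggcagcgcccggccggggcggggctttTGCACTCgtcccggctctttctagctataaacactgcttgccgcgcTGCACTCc
MT1X promoter, chr16:56682220-56682469, plus strand: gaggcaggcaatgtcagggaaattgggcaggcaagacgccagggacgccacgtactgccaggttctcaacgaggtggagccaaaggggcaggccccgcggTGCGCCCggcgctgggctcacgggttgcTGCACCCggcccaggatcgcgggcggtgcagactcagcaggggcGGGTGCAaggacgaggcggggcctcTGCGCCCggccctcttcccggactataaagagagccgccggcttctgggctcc
SLC30A1 promoter, chr1:211579162-211579411, minus strand: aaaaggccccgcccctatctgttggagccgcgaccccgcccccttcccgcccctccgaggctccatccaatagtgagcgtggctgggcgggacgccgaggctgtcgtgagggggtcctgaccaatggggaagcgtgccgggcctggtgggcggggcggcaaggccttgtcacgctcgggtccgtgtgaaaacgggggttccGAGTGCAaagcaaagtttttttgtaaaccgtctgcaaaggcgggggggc

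The MT2A window held 7 matches, from −246 to −2 relative to the start site, the MT1X window 4, from −150 to −47, and the SLC30A1 window 1, from −49 to −43, and no matches overlapped each other. At least 1 match was found in 24.8% of all 35116 windows, at least 4 in 0.37% and at least 5 in 0.12%. Promoters of 41 of the 52 members were in the RefSeq table, in 58 windows, and 39.7% of these windows held a match. MT1H, which had 0 counts in all libraries, held 8 matches and MT1B, also at 0, held 3. SLC30A2, another row at 0 counts, and TFRC, which was lower, held 3 each. At least 3 were found in 1.58% of all windows. The letters therefore stood in silent and in lower rows too.

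MT2A, the metallothionein with the most counts, stood at 13.0, 13.2 and 12.8 CPM in control and at 42.2, 42.7 and 48.8 CPM in TGFB1 libraries. The groups were far apart, with a 3.42-fold rise (log2 fold change 1.77 ± 0.083 SE, edgeR adjusted p = 1.19e-16). MT1E stood at 8.15, 9.37 and 6.88 CPM in control and at 15.4, 14.5 and 18.9 CPM in TGFB1 libraries, a 1.99-fold rise without overlap (log2 fold change 0.99 ± 0.125 SE, edgeR adjusted p = 1.27e-07). MT1X had few reads, 9, 10 and 7 counts in control and 21, 31 and 35 in TGFB1 libraries, and was 3.22-fold higher (log2 fold change 1.69 ± 0.335 SE, edgeR adjusted p = 1.23e-04). TGFB1 library 3 was the highest of the 6 for all 3 genes.

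The 10 rows summed to 21.7 ± 1.61 CPM in control and 62.8 ± 6.57 CPM in TGFB1 libraries (SD, n = 3). MT2A held 60.0% ± 3.32 of the metallothionein counts in control and 71.1% ± 1.53 in TGFB1 libraries. With all rows summed to 1 before the test, the rise was 1.53 on the log2 scale. Split by row these levels are uncertain, since metallothioneins are near copies of each other and reads that align to more than 1 place (12.0% to 12.5% of all lines) are not in the counts. Of the 50-base windows of the MT1X transcript 55.8% recur in a transcript of another symbol, against 10.6% for MT1E and 4.88% for MT2A. The other symbols number 1 for MT1X, 7 for MT1E and 5 for MT2A. For MT1X, exons of another gene, AC026461.1, overlap 18.1% of its exon bases. Whether the MT1X windows recur in that gene or in a metallothionein was not tested, so the MT1X share need not reflect near copies. The read length was not known here.

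MTF1 itself stood at 28.7, 27.1 and 28.9 CPM in control and at 28.6, 25.4 and 26.0 CPM in TGFB1 libraries. These overlap, and its RNA did not pass (log2 fold change −0.08 ± 0.077 SE, edgeR adjusted p = 0.400).

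Zinc exporters went both ways. Of 10 members 7 were tested, with 4 lower, 2 higher and 1 that did not pass (3 lower and 2 higher with scaling by library size alone or by upper quartile). The share called was 85.7%, against 47.3% of all tested genes (23.4% higher and 23.9% lower). Per transcript length, the higher ones, SLC30A3 and SLC30A4, had the lowest levels of the 7 in both groups. All SLC30A rows summed to 269 ± 7.66 CPM in control and 223 ± 3.73 CPM in TGFB1 libraries (SD, n = 3).

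SLC30A1, the exporter of the plasma membrane, stood at 109, 91.6 and 99.7 CPM in control and at 73.7, 65.9 and 73.9 CPM in TGFB1 libraries. It fell without overlap, 1.41-fold (log2 fold change −0.49 ± 0.064 SE, edgeR adjusted p = 2.42e-07). SLC30A1 and the metallothioneins, both known targets of MTF1, thus differed in direction under each scaling. Per kb of the longest GENCODE 29 transcript SLC30A1 was the highest exporter in both groups, at 18.3 ± 1.59 CPM per kb in control and 13.0 ± 0.830 CPM per kb in TGFB1 libraries (SD, n = 3).

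SLC30A5 and SLC30A6, which work as a pair to load zinc into the early secretory pathway, were 1.16-fold and 1.14-fold lower (edgeR adjusted p = 0.00507 and 0.0265). SLC30A6 lost its call without control 2 (0.0988) or TGFB1 library 1 (0.184), in DESeq2 (0.0693) and with scaling by library size alone (0.121) or upper quartile (0.0561). SLC30A9, a mitochondrial zinc transporter, stood at 37.3, 39 and 38 CPM in control and at 30.0, 29.5 and 31.0 CPM in TGFB1 libraries and fell 1.26-fold (edgeR adjusted p = 1.70e-04). SLC30A7, of the Golgi, stood at 35.9 ± 0.448 and 34.6 ± 1.93 CPM (SD, n = 3) and did not pass (edgeR adjusted p = 0.586).

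SLC30A3, known for loading zinc into synaptic vesicles, stood at 2.20, 2.43 and 3.41 CPM in control and at 6.05, 6.36 and 6.04 CPM in TGFB1 libraries. The rise was 2.28-fold without overlap (log2 fold change 1.19 ± 0.179 SE, edgeR adjusted p = 2.58e-06). SLC30A4, a vesicular exporter, had 15, 12 and 4 counts in control and 29, 41 and 23 in TGFB1 libraries, and control 3 was the lowest. It was 2.87-fold higher (log2 fold change 1.52 ± 0.341 SE, edgeR adjusted p = 4.97e-04). The count minimum was reached for SLC30A4 in 2 control and 3 TGFB1 libraries. SLC30A10, which exports manganese, had 4 control counts and 1 TGFB1 count.

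**Figure D3:**
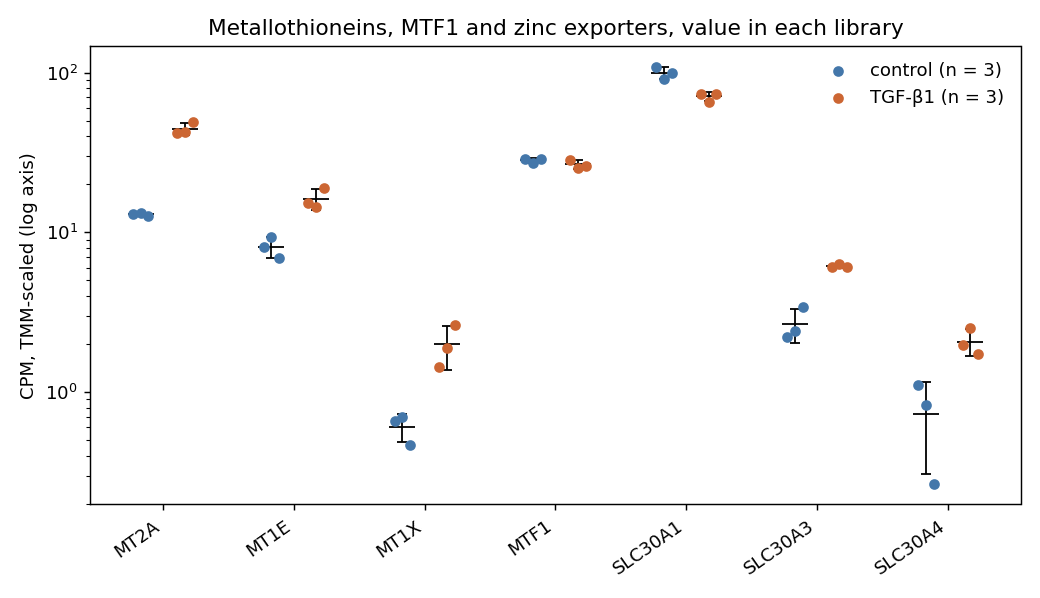
CPM (log axis) of 3 metallothioneins, their regulator MTF1 and 3 zinc exporters in each of the 3 control and 3 TGF-β1 libraries, with bars for the mean and whiskers for the SD. MT2A, MT1E, MT1X, SLC30A3 and SLC30A4 are higher with TGF-β1, SLC30A1 is lower, and MTF1 overlaps.

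Of 14 SLC39A zinc importers 11 were tested, with 4 higher, 1 lower and 6 that did not pass. The share called, 45.5%, was near the 47.3% of all tested genes. Higher calls numbered 7 with scaling by library size alone and 6 with upper quartile scaling, the added ones being SLC39A7, SLC39A8 and SLC39A10 in the first and SLC39A8 and SLC39A10 in the second. Summed over the family the level was 1385 ± 16.2 CPM in control and 1537 ± 6.60 CPM in TGFB1 libraries (SD, n = 3).

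SLC39A14 (ZIP14), which carries zinc, manganese and non-transferrin-bound iron, stood at 233, 212 and 241 CPM in control and at 348, 345 and 351 CPM in TGFB1 libraries. All TGFB1 libraries lay above the controls, by 1.52-fold (log2 fold change 0.60 ± 0.050 SE, edgeR adjusted p = 3.14e-11). Its share of all SLC39A counts was 16.5% ± 0.947 in control and 22.6% ± 0.171 in TGFB1 libraries (SD, n = 3). SLC39A13 (ZIP13), a transporter of intracellular vesicles and the Golgi that is mutated in a connective tissue disorder, stood at 49.2, 54.0 and 51.0 CPM in control and at 83.3, 82.9 and 77.7 CPM in TGFB1 libraries. It rose 1.58-fold without overlap (log2 fold change 0.66 ± 0.061 SE, edgeR adjusted p = 3.10e-10).

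The other higher calls were small. SLC39A4, the importer of dietary zinc that is lost in acrodermatitis enteropathica, rose 1.17-fold, from 26.2 ± 1.03 to 30.8 ± 0.407 CPM (SD, n = 3, edgeR adjusted p = 0.0108). SLC39A6, a plasma membrane importer, rose 1.13-fold (edgeR adjusted p = 0.0140). It no longer passed when control 2 (0.0867) or TGFB1 library 1 (0.0965) was left out. SLC39A9 (ZIP9) was the one that fell, at 102.5, 95.2 and 98.0 CPM in control and 80.7, 83.6 and 77.2 CPM in TGFB1 libraries (1.22-fold, edgeR adjusted p = 8.31e-05).

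SLC39A10, a plasma membrane importer related to SLC39A6, stood at 78.6, 68.6 and 76.1 CPM in control and at 78.5, 88.5 and 76.9 CPM in TGFB1 libraries. The groups overlap, and it did not pass (log2 fold change 0.13 ± 0.064 SE, edgeR adjusted p = 0.101), but it passed without TGFB1 library 3 (0.0370) and with scaling by library size alone (0.0216) or upper quartile (0.0483). SLC39A8 (ZIP8), the closest relative of SLC39A14, lay at the threshold, at 35.1 ± 2.58 and 39.5 ± 1.99 CPM (SD, n = 3, edgeR adjusted p = 0.0518), and passed without control 1 (0.0207), under each other scaling (0.0114 to 0.0497) and with a minimum of 1 CPM in 3 libraries (0.0487). SLC39A1, SLC39A3, SLC39A7 and SLC39A11 did not pass, with log2 fold changes of −0.11 to 0.08. For SLC39A12 there were 13 control counts and 1 TGFB1 count, a ratio of 13.4 with an exact 95% counting interval of 2.01 to 569.5. It was too low for the filter, and without a filter it was called lower (edgeR adjusted p = 0.0201).

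Per kb of the longest transcript, SLC39A1 and SLC39A7 led the importers in both groups. SLC39A1, a plasma membrane importer, stood at 156 ± 3.87 CPM per kb and SLC39A7, which releases zinc from the endoplasmic reticulum, at 142.5 ± 6.80 CPM per kb in control (SD, n = 3), with 152 to 160.0 against 138 to 150.3 over the libraries. In TGFB1 libraries they stood at 147 ± 2.80 and 151 ± 2.38 CPM per kb and overlapped. SLC39A14 followed, at 49.3 ± 3.21 CPM per kb in control and 75.0 ± 0.554 in TGFB1 libraries. SLC39A6, SLC39A9, SLC39A13 and SLC39A10 came next in control at 20.2 to 13.7 CPM per kb, SLC39A6 overlapping SLC39A9 and SLC39A13 overlapping SLC39A10. In TGFB1 libraries SLC39A13, at 22.9 ± 0.872, overlapped SLC39A6, at 22.8 ± 0.851 CPM per kb. Exons of other genes overlap 69.1% of SLC39A1 exon bases in GENCODE 29, so its level is uncertain.

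**Figure D4:**
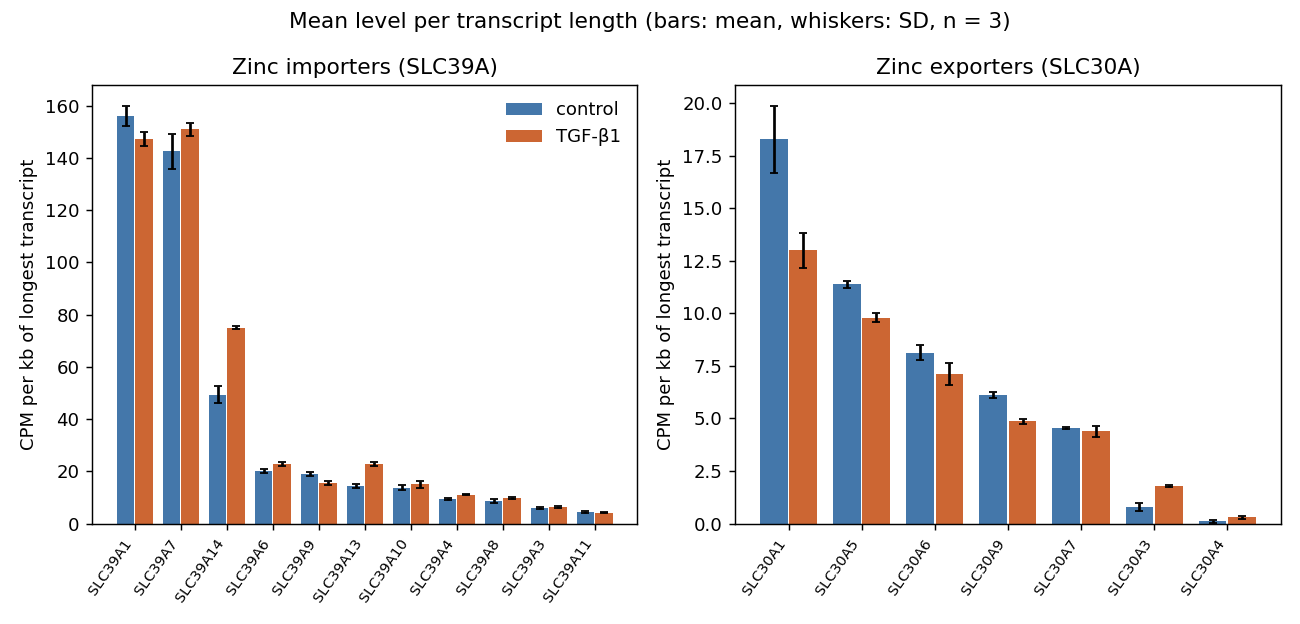
Mean CPM per kb of the longest transcript for the tested SLC39A importers (left) and SLC30A exporters (right), bars from 0 with the SD over 3 libraries per group. SLC39A14 and SLC39A13 are taller and SLC30A1 and SLC30A9 shorter with TGF-β1, and SLC39A1 and SLC39A7 dominate the importers in both groups.

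Copper genes went both ways. Of 6 members 5 were tested, with 2 lower, 1 higher and 2 that did not pass (1 lower and 1 higher with scaling by library size alone or by upper quartile). The share called was 60%, against 47.3% of all tested genes (23.4% higher and 23.9% lower). ATP7A, the pump that loads copper onto secreted enzymes in the trans-Golgi and exports its excess, stood at 42.5, 36.0 and 43.3 CPM in control and at 29.8, 30.4 and 24.1 CPM in TGFB1 libraries. It fell 1.44-fold without overlap (log2 fold change −0.53 ± 0.086 SE, edgeR adjusted p = 1.15e-05). ATOX1, the chaperone that hands copper to ATP7A and ATP7B, stood at 27.7, 33.7 and 26.8 CPM in control and at 38.4, 36.3 and 43.6 CPM in TGFB1 libraries. It rose 1.34-fold (log2 fold change 0.42 ± 0.085 SE, edgeR adjusted p = 1.87e-04), so the chaperone and its pump differed in direction under each scaling.

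SLC31A1 (CTR1), the main copper importer, stood at 57.9, 58.1 and 57.1 CPM in control and at 47.5, 52.9 and 53.4 CPM in TGFB1 libraries. Its fall of 0.17 on the log2 scale (1.13-fold, edgeR adjusted p = 0.0278) lost its call without control 2 (0.0501), control 3 (0.0568) or TGFB1 library 1 (0.200), in DESeq2 (0.0632) and with scaling by library size alone (0.147) or upper quartile (0.0629). ATP7B, the pump mutated in Wilson disease, was low, at 1.03, 0.833 and 1.40 CPM in control and 1.63, 1.28 and 1.43 CPM in TGFB1 libraries, and did not pass (log2 fold change 0.40 ± 0.302 SE, edgeR adjusted p = 0.291). CCS, which loads copper into superoxide dismutase, stood at 29.9 ± 1.62 and 28.5 ± 0.967 CPM (SD, n = 3) and did not pass (edgeR adjusted p = 0.487). SLC31A2 had 11 control and 4 TGFB1 counts, a ratio of 2.83 with an exact 95% counting interval of 0.840 to 12.2. Exons of FKBP15 overlap 63.1% of SLC31A2 exon bases in GENCODE 29, so its level is uncertain.

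Other letters sought in the 58 promoter windows gave the following. The antioxidant response element core TGACNNNGC, the site of NRF2, which is known to drive ferritin genes, was found in 22.4% of member windows and 10.9% of all windows, both strands. The FTL window did not hold it, and FTH1 has no window, so the matches were in other members. The SMAD palindrome GTCTAGAC was in 0 member windows and 0.182% of all windows. The shorter SMAD letters CAGACA were in 12.1% of member windows and 13.6% of all windows. Windows of 1 gene can overlap, and these shares were not tested.

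A wider list of 86 other genes of zinc, copper and iron biology gave 66 tested genes, of which 13 were higher, 28 lower and 25 did not pass, with a median log2 fold change of −0.10. This is 62.1% called, against 47.3% of all tested genes. Of 33 iron and haem genes 8 were higher and 16 lower, of 19 copper genes 4 and 4, and of 14 zinc genes 1 and 8, which is 72.7%, 42.1% and 64.3% called. HAMP (hepcidin), TF (transferrin) and HEPH (a ferroxidase) had 0 counts in every library of both groups. The 10 largest called changes were in the zinc-dependent alkaline phosphatases ALPP, ALPI and ALPL (25.5-fold, 13.5-fold and 4.99-fold lower, ALPP and ALPI being near copies whose reads the counting could split), the copper-dependent collagen crosslinking enzymes LOX and LOXL1 (7.20-fold and 1.76-fold higher), the haem and drug exporter ABCG2 (5.31-fold lower), LCN2, which binds iron-carrying siderophores (3.78-fold lower), the carbonic anhydrase CA9 (2.24-fold lower), NEO1, a receptor known to act in hepcidin control (2.10-fold lower), and BLVRB, a biliverdin reductase (1.94-fold lower). NEO1 fell from 78.1 ± 2.58 to 37.0 ± 4.94 CPM and BLVRB from 137 ± 8.46 to 70.6 ± 5.08 CPM (SD, n = 3, edgeR adjusted p = 9.48e-13 and 8.60e-14).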

How the data were processed

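Total RNA of 6 libraries was sequenced, and the authors deposited 1 table of raw read counts per gene symbol for each, without normalization. Per the submitters' processing notes, hg19 and GRCh37 are the builds and TopHat2 2.0.11, TopHat and HTSeq the tools, without role or order. Of annotation, strand setting and filters on reads nothing is stated in the sources used here. The closing counter lines stayed out of sizes and tests: no feature 5.44% to 5.98%, ambiguous 9.01% to 9.43% and not unique 12.0% to 12.5% of all lines. No 2 libraries of a group agreed within sampling noise (chi-square per degree of freedom 1.82 to 4.67).

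Groups came from the labels. Genes were kept with filterByExpr (minimum count 10, minimum total 15), scaled by TMM (factors 0.975 to 1.02) and tested with edgeR 4.0.16 (robust quasi-likelihood, Benjamini-Hochberg over 14897 genes, threshold 0.05). SEs were derived from the F statistic. The test was tried on simulated data. Alternatives were DESeq2 1.42.0, limma-voom (limma 3.58.1), other scalings and filters, the replicate block, each library left out, and close copies summed. Members and lists were chosen with earlier results of these data known. Full values are given for 15 set genes and for called members of at least 1.5-fold and 1 CPM in a group. The hairpin, 50-base window and exon overlap searches, and giving every library's value for ATOX1, SLC30A9 and SLC39A9, were chosen after the data were seen. Without molecular identifiers, intervals and floors reflect counting error alone.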

Additional observations from a re-analysis of the deposited data

How the results depend on the processing

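Of the 24 called members 20 kept their call and direction under all alternatives that were run. Of the 11 that did not pass 7 stayed so without a change of sign. The others were SLC39A7, SLC39A8 and SLC39A10, which passed in some alternatives, and SLC30A7, which passed in none. The exceptions among the called were SLC11A2, SLC30A6, SLC31A1 and SLC39A6, with the values given above. SLC30A7, not called, changed sign to 0.0060 with scaling by library size alone. That scaling shifted the median of all genes by 0.057 on the log2 scale. Members called numbered 20 to 25 and all genes called 6115 to 6816 when 1 library was left out, against 24 and 7044. Only 6041 genes and 21 members were called by DESeq2. The replicate numbers did not pair the libraries: deviations of same-numbered libraries correlated at 0.0306, −0.107 and −0.0481. With the replicate number as a block 24 members and 6775 genes were called, and no member changed its call. Where 1 library of a group was left out, 2 remained, so those fits rest on fewer libraries. Members under about 1 CPM are limited by counting: MT1X rests on 26 control counts and SLC30A4 on 31.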
